A study of Mus musculus with 12 samples.

Results

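The genes described here are 10 members of the matrix metalloproteinase system: the tissue inhibitors Timp1, Timp2 and Timp3, the membrane-anchored inhibitor Reck, and the proteinases Mmp2, Mmp3, Mmp9, Mmp13, Mmp14 and Mmp19. They were chosen by symbol from the 45706 genes of the deposited table, with earlier results of these data known, because Timp3 is among the genes that fall most in sorted cells. That fall is the reason for the choice, and it is described below without a test. All 10 passed the filter on low values that 18909 genes passed, a mean of at least 0.1 TPM (transcripts per 1000000) over the libraries.

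The cells were BN1-Tie2-EGFP, a hepatoblastoma (HB) line from a tumor induced in mouse liver by mutant β-catenin and NRF2, in which the Cdkn2a locus had been targeted with Crispr/Cas9. Pooled stable transfectants carry EGFP under the endothelial Tie2 promoter, and all 4 groups share the oncogenes, the Cdkn2a lesion and the reporter. RNA-seq was performed on 12 libraries, 3 in each group. Unsorted cells were grown in 21% oxygen (UN) or held at 1% oxygen for 2 days before harvest (UH). Sorted cells were those with the highest EGFP after hypoxia, expanded again in 21% oxygen (SN) and, for the last group, given another 2 days at 1% oxygen (SH). The labels of all 12 libraries, unsorted ones included, name EGFP-positive cells, and the line is 1 tumor-derived line rather than several. The study, however, saw no EGFP in normoxic monolayers, and strong EGFP in only a subpopulation of BN cells in hypoxia. The study calls the libraries of a group independent, but neither it nor the labels say whether these were separate cultures, and p-values measure only the spread between these libraries.

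Matrix metalloproteinases (MMPs) are zinc proteinases that cut collagens, proteoglycans and other proteins outside the cell. Most are secreted as inactive proenzymes and are held in check by the TIMPs, each of which can block many MMPs. Timp3 is the TIMP that binds tightly to the matrix, and it also inhibits several ADAM and ADAMTS proteinases. In liver, most TIMPs and MMPs are best known from stellate cells, macrophages and the remodelling of scar tissue. RNA levels say nothing of the activity of the enzymes, which depends on secretion, activation and inhibition.

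Promoter sequence was taken from a set of RefSeq promoters (GRCm38.p6). The set used here held 7 of the 10 members (not Mmp2, Mmp9 and Mmp19). The 4 shown are those of members that passed the test for a change with hypoxia in unsorted cells, Timp3, Timp1 and Mmp3 upward and Mmp13 downward. All are on the plus strand and written 5′ to 3′ up to the annotated start of the gene. Capitals mark the core of the hypoxia response element (ACGTG or GCGTG, either strand) and the AP-1 site (TGANTCA).
Timp3 (chr10:86300162-86300371): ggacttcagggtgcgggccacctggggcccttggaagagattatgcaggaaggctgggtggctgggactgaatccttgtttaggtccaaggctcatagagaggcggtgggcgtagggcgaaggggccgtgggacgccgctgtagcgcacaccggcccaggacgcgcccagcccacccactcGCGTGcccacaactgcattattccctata
Timp1 (chrX:20869916-20870165): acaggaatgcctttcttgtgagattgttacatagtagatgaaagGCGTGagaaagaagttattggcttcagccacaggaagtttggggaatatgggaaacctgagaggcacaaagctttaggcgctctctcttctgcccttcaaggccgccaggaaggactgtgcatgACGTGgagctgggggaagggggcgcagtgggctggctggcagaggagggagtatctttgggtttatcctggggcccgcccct
Mmp3 (chr9:7445572-7445821): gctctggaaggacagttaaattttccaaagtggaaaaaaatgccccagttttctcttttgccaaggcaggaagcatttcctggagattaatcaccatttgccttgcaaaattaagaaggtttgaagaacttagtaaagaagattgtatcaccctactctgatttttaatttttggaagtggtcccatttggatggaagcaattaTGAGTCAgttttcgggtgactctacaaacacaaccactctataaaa
Mmp13 (chr9:7272264-7272513): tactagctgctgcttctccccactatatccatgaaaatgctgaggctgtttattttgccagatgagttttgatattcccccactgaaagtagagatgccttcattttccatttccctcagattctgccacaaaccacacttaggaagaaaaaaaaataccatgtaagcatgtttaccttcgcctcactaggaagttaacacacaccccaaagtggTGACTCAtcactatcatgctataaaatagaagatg

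In the window of 250 bases before the RefSeq start, the Timp3 promoter held GCGTG 69 bases before the start, and the Timp1 promoter held GCGTG and ACGTG 206 and 82 bases before it. The hypoxia core was also present in the Timp2 and Mmp14 windows and absent from those of Mmp3, Mmp13 and Reck, so that 4 of 7 members had it, against 38.6% of 32851 promoter windows of the same length. An AP-1 site stood 46 bases before the start of Mmp3 and 35 bases before that of Mmp13, 2 of 7 members against 6.75% of all windows. These letters were found both in a gene that rose and in a gene that fell in UH cells, and a match is a description of the sequence only.

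Timp3 (ENSMUSG00000020044, chr10:86300372-86349506, plus strand) had the widest range of the 10. In UN cells it stood at 236, 202 and 196 TPM in replicates 1 to 3, and in UH cells at 1410, 2000 and 2205 TPM. In SN cells the values were 0.798, 0.908 and 1.37 TPM, and in SH cells 2.34, 1.98 and 1.27 TPM. Both unsorted groups therefore stood far above both sorted groups in every library, the unsorted groups did not overlap, and the sorted groups did, with the highest SN library above the lowest SH library. The mean rose from 211 ± 21.4 (SD, n = 3) TPM in UN cells to 1872 ± 413 (SD, n = 3) in UH cells, a ratio of 8.86. On the scale of log2(TPM + 1), on which all fold changes are given and which understates the change of low genes, the difference was 3.12 (SE 0.19, limma adjusted p = 2.34e-07). In sorted cells the same 2 days of hypoxia went with means of 1.02 ± 0.302 (SD, n = 3) and 1.86 ± 0.547 (SD, n = 3) TPM, a log2 difference of 0.49 (SE 0.19, 95% interval 0.08 to 0.91) that missed the threshold (limma adjusted p = 0.0561). With a pseudocount of 0.1 in place of 1 that difference was 0.80 (limma adjusted p = 0.0198), still under the fold of 2 that a call required. The SN libraries also entered the contrast that chose Timp3, so its p-values in sorted cells are not independent of that choice.

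The contrast that chose Timp3 was a UN level 206 times the SN level, a log2 difference of −6.72. In hypoxia the UH level was 1005 times the SH level (log2 difference −9.35), which is likewise given without a test. Sequencing was of whole cultures, in which fewer cells with a transcript and less transcript per cell cannot be told apart.

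Timp3 overlaps Syn3, a synapsin gene on the opposite strand, and 1733 of its 8144 annotated exon bases are also exon bases of Syn3. Whether strand was used in the counting is not given in the sources used here, so reads from the shared bases cannot be told apart. Syn3 averaged 11.1 TPM in UN, 98.7 in UH, 1.46 in SN and 1.35 in SH cells. It was below Timp3 in both unsorted groups and, on average, above it in SN cells.

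**Figure D1:**
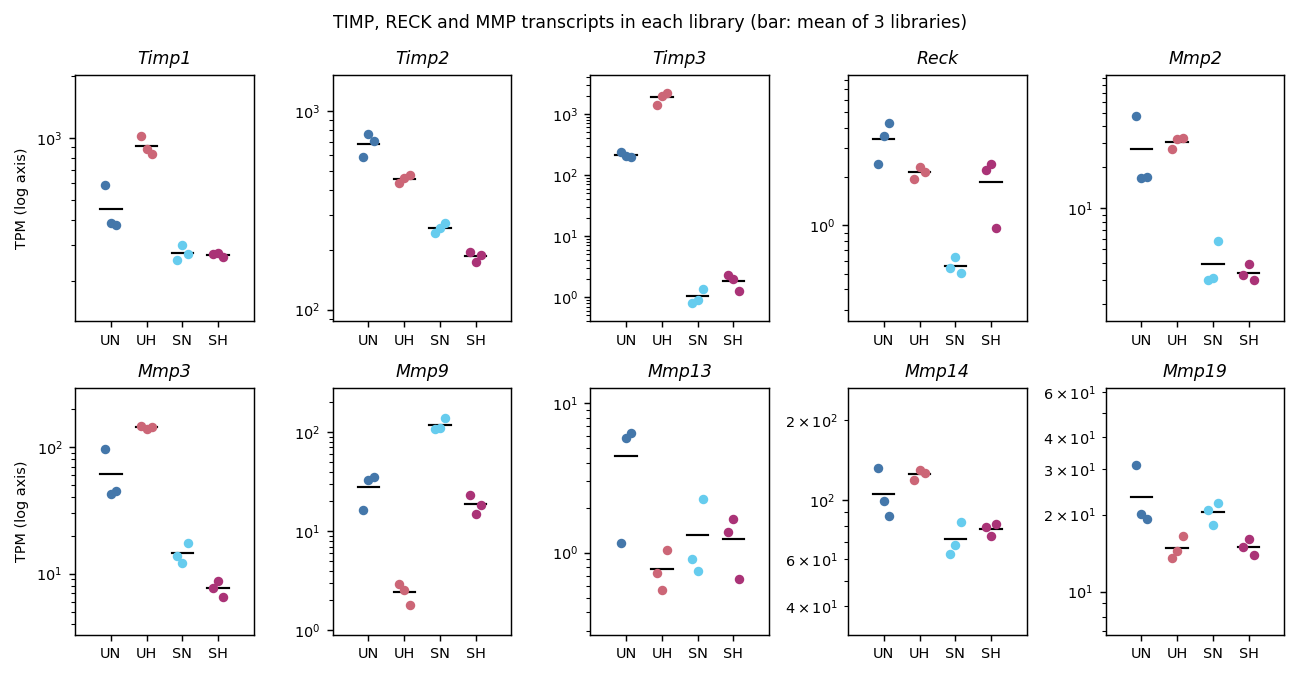
TPM (log axis, a separate scale for each gene) of the 10 genes in each of the 12 libraries, with points for libraries in replicate order and a bar for the mean of 3. Timp3 spans from 0.798 to 2205 TPM, and Mmp9 is the gene with its highest mean, 119 TPM, in SN cells.

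Timp1 (ENSMUSG00000001131, chrX:20870166-20874735, plus strand), the secreted inhibitor usually induced with inflammation and wounding, was abundant in every group. UN cells had 591, 386 and 376 TPM and UH cells 1015, 885 and 837 TPM. SN cells had 255, 301 and 273 TPM and SH cells 271, 274 and 262 TPM. The unsorted groups were apart from each other and above all sorted libraries, and the sorted groups overlapped. Timp1 rose with hypoxia in unsorted cells by 1.04 (SE 0.15, limma adjusted p = 1.86e-04), just past the fold threshold. That call is lost by size in 4 alternatives, the lowest being 0.93 without UN replicate 3, and without UN replicate 1 the difference was 1.25. In sorted cells the difference was −0.03 (95% interval −0.37 to 0.30, limma adjusted p = 0.895), an interval that leaves out the rise seen in unsorted cells. The difference between the 2 responses, sorted minus unsorted, was −1.08 (SE 0.22, limma adjusted p = 0.00563), and −0.87, under the fold threshold, after quantile normalization.

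Timp2 (ENSMUSG00000017466, chr11:118301069-118355740, minus strand), which both inhibits MMPs and, bound to Mmp14, helps activate pro-Mmp2 at the cell surface, was lower in both hypoxic groups. It stood at 585, 764 and 710 TPM in UN, 434, 461 and 477 in UH, 243, 258 and 273 in SN, and 195, 174 and 188 in SH cells. The 4 groups did not overlap, and their order was UN, UH, SN and SH from high to low. Hypoxia went with a difference of −0.58 (SE 0.10, limma adjusted p = 7.83e-04) in unsorted and −0.47 (SE 0.10, limma adjusted p = 0.00355) in sorted cells, both under the fold threshold. The 2 responses differed by 0.10 (95% interval −0.22 to 0.43, limma adjusted p = 0.641), and this sign turned under median-of-ratios scaling. Between SH and UH cells Timp2 was lower by a log2 difference of −1.30 (SE 0.10, limma adjusted p = 2.51e-06).

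Reck (ENSMUSG00000028476, chr4:43875530-43944806, plus strand), a GPI-anchored protein that restrains several MMPs at the cell surface, was the lowest inhibitor in unsorted cells. UN cells had 2.41, 3.58 and 4.29 TPM, UH cells 1.93, 2.31 and 2.14, SN cells 0.544, 0.632 and 0.507, and SH cells 2.21, 2.39 and 0.957 TPM. SN cells were below all other libraries, and SH replicate 3 was less than the other 2 SH libraries. In sorted cells hypoxia went with a difference of 0.83 (SE 0.22, limma adjusted p = 0.00979), a ratio of mean TPM of 3.30 that stayed under the fold threshold on the log2(TPM + 1) scale. That difference became a call at 1.47 with a pseudocount of 0.1 and at 1.08 without SH replicate 3. In unsorted cells the difference was −0.48 (SE 0.22, limma adjusted p = 0.0935). The responses differed by 1.31 (SE 0.31, limma adjusted p = 0.0119), which fell to 0.77 (limma adjusted p = 0.0584) after quantile normalization.

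Mmp9 (ENSMUSG00000017737, chr2:164940780-164955850, plus strand), the gelatinase B that cuts denatured and basement membrane collagen, was the member called lower with hypoxia in both kinds of cells. UN cells had 16.5, 32.9 and 35.3 TPM and UH cells 2.90, 2.54 and 1.80 TPM. SN cells had 107, 111 and 140 TPM and SH cells 23.4, 15.0 and 18.4 TPM. The highest values were in SN cells and the lowest in UH cells, with neither overlapping any other group, while the UN and SH groups overlapped. Mmp9 fell by 3.04 on the log2 scale in unsorted cells (SE 0.26, limma adjusted p = 3.17e-06) and by 2.60 in sorted cells (SE 0.26, limma adjusted p = 1.67e-05). The difference between these responses was 0.44 (95% interval −0.37 to 1.25, limma adjusted p = 0.419). In hypoxia Mmp9 was 7.85 times as high in sorted as in unsorted cells (log2 difference 2.54, SE 0.26, limma adjusted p = 1.71e-05), and in normoxia 4.22 times as high.

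Mmp3 (ENSMUSG00000043613, chr9:7445822-7455975, plus strand), the stromelysin that cuts proteoglycans and activates other proMMPs, was, like Timp1, called higher with hypoxia in unsorted cells. It stood at 97.3, 42.7 and 45.1 TPM in UN and at 147, 140 and 144 TPM in UH cells. SN cells had 13.7, 12.1 and 17.6 TPM and SH cells 7.73, 8.67 and 6.58 TPM. No groups overlapped, and UN replicate 1 was more than both other UN libraries together. Mmp3 rose in UH cells by 1.31 (SE 0.26, limma adjusted p = 0.00138), or by 1.69 without UN replicate 1. In sorted cells the difference was −0.83 (SE 0.26, limma adjusted p = 0.0231), in the opposite direction and under the fold threshold. The responses differed by −2.14 (SE 0.37, limma adjusted p = 0.00220). Between SH and UH cells Mmp3 was lower by −4.07 (SE 0.26, limma adjusted p = 3.89e-07).

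Mmp13 (ENSMUSG00000050578, chr9:7272514-7283331, plus strand), a collagenase of the same gene cluster as Mmp3, was the lowest proteinase of the list in all 4 groups. UN cells had 1.16, 5.82 and 6.34 TPM and UH cells 0.725, 0.564 and 1.04 TPM. SN cells had 0.900, 0.748 and 2.28 TPM and SH cells 1.37, 1.68 and 0.666 TPM. Only UN replicates 2 and 3 stood clearly above the rest. The fall in UH cells, −1.43 (SE 0.42, limma adjusted p = 0.0140), rests on those libraries: it was not called without UN replicate 2 (limma adjusted p = 0.0607) or UN replicate 3 (limma adjusted p = 0.0631), nor with no filter or the 2 groups fitted alone. Without UN replicate 1 it was −2.00. In sorted cells the difference was −0.01 (95% interval −0.92 to 0.90, limma adjusted p = 0.993), and the difference of responses, 1.42 (SE 0.59), did not pass (limma adjusted p = 0.106). It passed at 1.99 without UN replicate 1 (limma adjusted p = 0.00278).

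Mmp2 (ENSMUSG00000031740, chr8:92827291-92853420, plus strand) is gelatinase A, typical of fibroblasts and stellate cells. It stood at 48.1, 16.7 and 16.9 TPM in UN, 27.2, 32.4 and 33.0 in UH, 2.96, 3.09 and 5.74 in SN, and 3.23, 3.90 and 2.97 in SH cells. Every unsorted library was above every sorted one, while the oxygen groups overlapped in both kinds of cells. The response was 0.35 (SE 0.34, limma adjusted p = 0.447) in unsorted cells and −0.14 (SE 0.34, limma adjusted p = 0.801) in sorted cells. Without UN replicate 1 the first became 0.83 (limma adjusted p = 0.00890), under the fold threshold. Between SH and UH cells Mmp2 was lower by −2.87 (SE 0.34, limma adjusted p = 5.42e-05), and the UN mean was 6.93 times the SN mean.

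Mmp14 (ENSMUSG00000000957, chr14:54431612-54445364, plus strand), the membrane-type enzyme that cuts fibrillar collagen at the cell surface and activates pro-Mmp2, was the steadiest abundant proteinase. Its libraries ran from 86.9 to 132 TPM in UN, 119 to 130 in UH, 62.7 to 83.2 in SN and 73.5 to 81.1 in SH cells. Hypoxia went with differences of 0.26 (95% interval −0.06 to 0.58, limma adjusted p = 0.167) and 0.14 (95% interval −0.18 to 0.46, limma adjusted p = 0.493), so a change of more than the fold threshold lay outside both intervals. Without UN replicate 1 the first was 0.43 (limma adjusted p = 0.0130). SH cells had less Mmp14 than UH cells, by −0.68 (SE 0.15, limma adjusted p = 0.00304), under the fold threshold.

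Mmp19 (ENSMUSG00000025355, chr10:128790910-128800824, plus strand), a basement membrane proteinase of wide expression, had the narrowest span of group means, 0.60 on the log2 scale. UN libraries lay from 19.2 to 31.2 TPM, UH from 13.6 to 16.4, SN from 18.3 to 22.3 and SH from 13.9 to 16.0 TPM. Both hypoxic groups were below both normoxic groups, and UN and SN overlapped, as did UH and SH. The differences were −0.60 (SE 0.17, limma adjusted p = 0.0116) in unsorted and −0.43 (SE 0.17, limma adjusted p = 0.0617) in sorted cells, neither past the fold threshold. SH and UH cells differed by 0.01 (95% interval −0.36 to 0.38, limma adjusted p = 0.976). Of its 3533 exon bases, 789 are shared with Tmem198b on the opposite strand, whose group means were between 11.6 and 14.2 TPM.

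In all, hypoxia in unsorted cells raised 3 of the 10 members (Timp1, Timp3 and Mmp3) and lowered 2 (Mmp9 and Mmp13) at a limma adjusted p under 0.05 and a fold above 2, where 17.2% of all tested genes were called (5.46% higher and 11.8% lower). Over all genes 1032 were called higher and 2222 lower, or 1566 and 1221 after median-of-ratios scaling, which moved the median of all genes from −0.19 to 0 and left the same 5 members called. In sorted cells hypoxia raised 0 and lowered 1 (Mmp9), where 12.5% of genes were called (7.47% higher and 5% lower). At an unadjusted limma p under 0.05, 2 members were higher (Reck, and Timp3 with the limit given above) and 4 lower in sorted cells. There 9148 of 18909 genes passed, a share near that of the members. The median difference over the members was −0.11 in unsorted and −0.09 in sorted cells, beside −0.19 and 0.03 over all genes tested. Libraries of the 2 groups did not overlap for 8 members in unsorted cells, against 51.1% of all genes, and for 5 in sorted cells, against 56.8%. Such separation in 3 libraries against 3 corresponds to an exact permutation p of 0.1, the smallest the design allows.

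The responses of sorted and unsorted cells differed for 3 of the 9 members tested, Reck upward and Timp1 and Mmp3 downward, where 10.3% of all genes were called (8.08% higher and 2.18% lower). Of the same 9 members, 1 was higher in SH than UH cells (Mmp9) and 4 were lower (Timp1, Timp2, Mmp2 and Mmp3), where 13% of all genes were called (7.65% higher and 5.35% lower). Timp3 was left out of both tests, since its level in sorted cells chose it. In the contrast behind the choice, SN against UN cells, no member was tested. As a description from which nothing is read, Mmp9 lay above the thresholds of a call and Timp2, Timp3, Reck, Mmp2 and Mmp3 below them, where 10.8% of all genes were called (3.2% higher and 7.57% lower). Libraries did not overlap for 8 members there, beside 49% of all genes, and for 7 between SH and UH cells, Timp3 among them, beside 51.7%. The comparisons of sorted with unsorted cells share no libraries with each other, and each shares libraries with the responses to hypoxia.

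**Figure D2:**
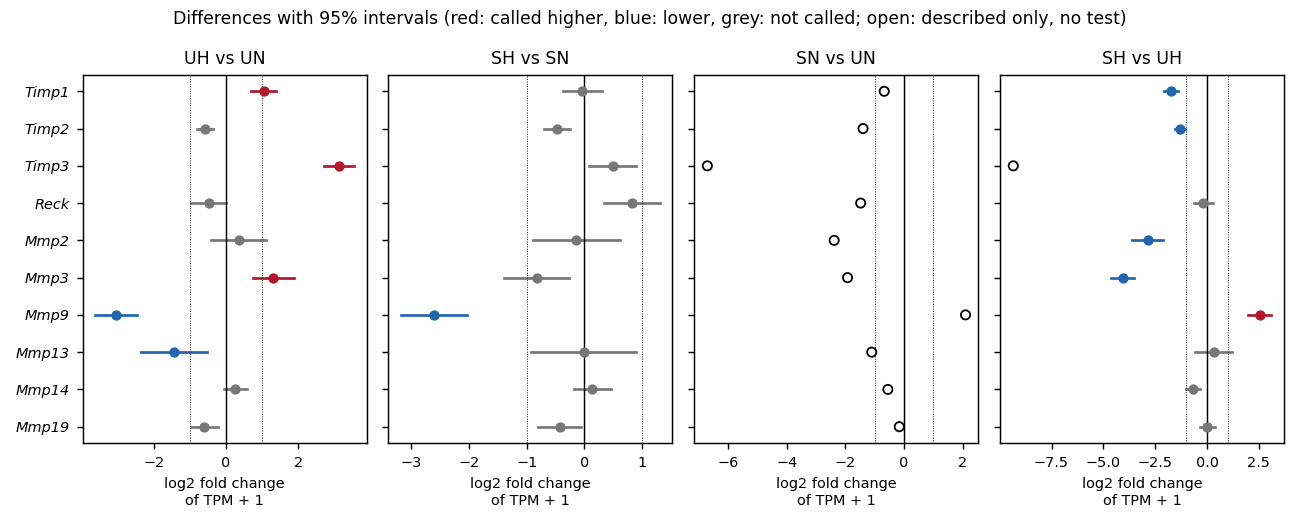
Log2 fold changes of TPM + 1 for the 10 genes in 4 comparisons, with 95% intervals from limma, the solid line at 0 and dotted lines at a fold of 2. Open points, in SN vs UN and for Timp3 in SH vs UH, are described without a test. Mmp9 is lower in both responses to hypoxia, by −3.04 and −2.60, and Timp3 is higher in the first, by 3.12.

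TPM are corrected for transcript length, so levels of different genes can be added. Summed over Timp1, Timp2 and Timp3, inhibitor transcripts of UN cells came to 1349 ± 64.7 (SD, n = 3) TPM and those of UH cells to 3241 ± 343 (SD, n = 3). The sums of SN cells, 535 ± 31.7 (SD, n = 3), and of SH cells, 457 ± 10.2 (SD, n = 3), were below both. Timp3 made up 57.2% of that sum in UH cells, 15.6% in UN cells and 0.191% and 0.407% in SN and SH cells. The inhibitor pool of sorted cells was thus made almost wholly of Timp1 and Timp2, in shares of 51.6% and 48.2% in SN cells.

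The 6 proteinases summed to 251 ± 65.2 (SD, n = 3) TPM in UN and 318 ± 6.83 (SD, n = 3) in UH cells. Sorted cells had sums of 231 ± 35.1 (SD, n = 3) in normoxia and 124 ± 5.82 (SD, n = 3) in hypoxia. Mmp9 made up 51.7% of the sum in SN cells and 0.761% in UH cells, where Mmp3 and Mmp14 held 45.2% and 39.4%. In SH cells Mmp14 alone held 62.9%. The sums of UN and SN cells overlapped, although different genes led them.

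The ratio of summed TIMP to summed MMP transcripts was 4.33, 6.23 and 6.11 in the UN libraries, 9.22, 10.4 and 10.9 in the UH libraries, 2.40, 2.63 and 2.02 in the SN libraries, and 3.60, 3.80 and 3.65 in the SH libraries. For these 6 proteinases the groups did not overlap, with UH highest and SN lowest. Other MMP genes are not in the ratio. They summed to means of 60.4 TPM in UN, 93.3 in UH, 72.7 in SN and 122 in SH cells. That last mean is close to the 124 TPM of the 6 proteinases in SH cells. The order of the groups, and the separation of SN from SH cells, are given for the 6 listed genes only. With these other MMP transcripts added in each library, the SN and SH ratios overlapped. The separation of SN from SH cells therefore depends on which proteinases are counted. With Timp3 left out, the ratio averaged 4.69 ± 0.944 (SD, n = 3) in UN and 4.31 ± 0.318 (SD, n = 3) in UH cells, which overlapped, and 2.35 ± 0.310 (SD, n = 3) and 3.67 ± 0.104 (SD, n = 3) in SN and SH cells, which did not. The higher ratio of UH than UN cells was therefore not present without Timp3. UN and SH cells also overlapped without it, with UN replicate 1 at 3.61 and SH libraries from 3.58 to 3.78. These are ratios of RNA, given without a test because the members were chosen with earlier results of these data known.

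**Figure D3:**
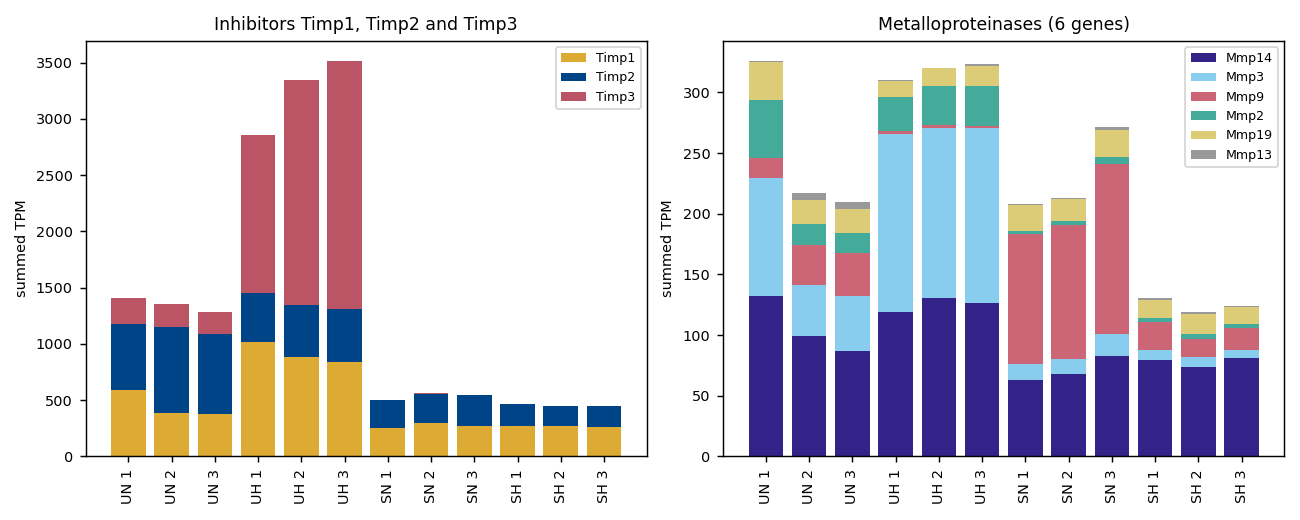
Summed TPM (linear axes from 0) of 3 TIMP genes and of 6 MMP genes in each library, stacked by gene. Timp3 forms the top of the UH inhibitor bars, which reach from 2859 to 3519 TPM, and Mmp9 the bulk of the SN proteinase bars.

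Markers of other cell types moved with these genes. UN replicate 1 stood apart from its group, with 777 of 18909 genes more than 1 log2 unit from both other replicates, against 96 to 250 in the other libraries. The summed level of 10 fibroblast and stellate cell markers was 5266 TPM in that library and 1347 and 1198 in the other UN libraries, and ran from 4986 to 7243 in UH, 202 to 211 in SN and 52.9 to 67.9 in SH cells. Collagens made up most of this sum in unsorted cells, and not all markers moved with it. Of the 9 tested, 4 were higher in UH than UN cells (Col1a1, Col1a2, Col3a1 and Tagln) and 3 were lower (Pdgfra by −2.24, Pdgfrb by −1.37 and Dcn by −1.32). Of all genes, 5.46% were called higher and 11.8% lower there. Between SN and UN cells 6 were lower, beside 7.57% of all genes, while Pdgfrb and Dcn differed by 0.11 and −0.18 without a call. In SH against UH cells 7 were lower, beside 5.35% of all genes. Lum and Thy1 were near 0 throughout. Within UN cells the library with that highest sum also had the most Timp1, Timp3, Mmp2, Mmp3, Mmp14 and Mmp19 and the least Timp2, Reck, Mmp9 and Mmp13. The 10 macrophage and leukocyte markers summed to 93.7 to 121 TPM in UN, 47.7 to 52.2 in UH, 307 to 351 in SN and 136 to 142 in SH cells, with Ptprc, Adgre1 and C1qa near 0. Cd14 was the largest part of the sum in all 4 groups and, like Mmp9, was called lower with hypoxia in both kinds of cells. Cd68 was called higher in both (by 1.83 and 2.66), and Csf1r in unsorted cells (by 1.17), opposite to Mmp9. The part of these cells or programs in the levels of the members was not tested.

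Defining hepatocyte markers were low for a line from a liver tumor, with Alb at 2.51 TPM in UN cells and Ttr near 0, while Krt8 and Krt18 made up most of a marker sum between 96.7 and 217 TPM. Endothelial markers were low, from 2.48 to 29.8 TPM in sum, and Cdh5, Tie1 and Emcn were near 0. Tek, whose promoter drives the reporter, averaged 0.13 TPM in UN, 0.16 in UH, 2.49 in SN and 3.04 in SH cells. That is the reverse of the order of Timp3 between sorted and unsorted cells. Not all endothelial markers went with Tek. Flt1, the largest part of the sum in UH cells, averaged 2.52 TPM in UN, 23.0 in UH, 1.33 in SN and 3.86 in SH cells. It was higher in UH than UN cells by 2.78 and differed by −2.28 between SH and UH cells, both in the direction of Timp3. Plvap averaged 0.156, 1.57, 1.34 and 4.13 TPM in the same order of groups.

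The genes whose pattern was most like that of Timp3 were sought over the 12 libraries, by the root-mean-square difference of log2(TPM + 1) after centring each gene. The nearest was Lox, lysyl oxidase, which cross-links collagen, at 0.30, with means of 134 TPM in UN, 735 in UH, 0.137 in SN and 0.694 in SH cells. Next came Col1a2 at 0.69, Col1a1 at 0.87, Col3a1 at 0.90, and Fndc1 at 1.03. The collagens are genes of the main fibrillar matrix, and 3 of these 5 genes are among the fibroblast markers above. The libraries share culture, sorting and sequencing, and the likeness is a description.

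**Figure D4:**
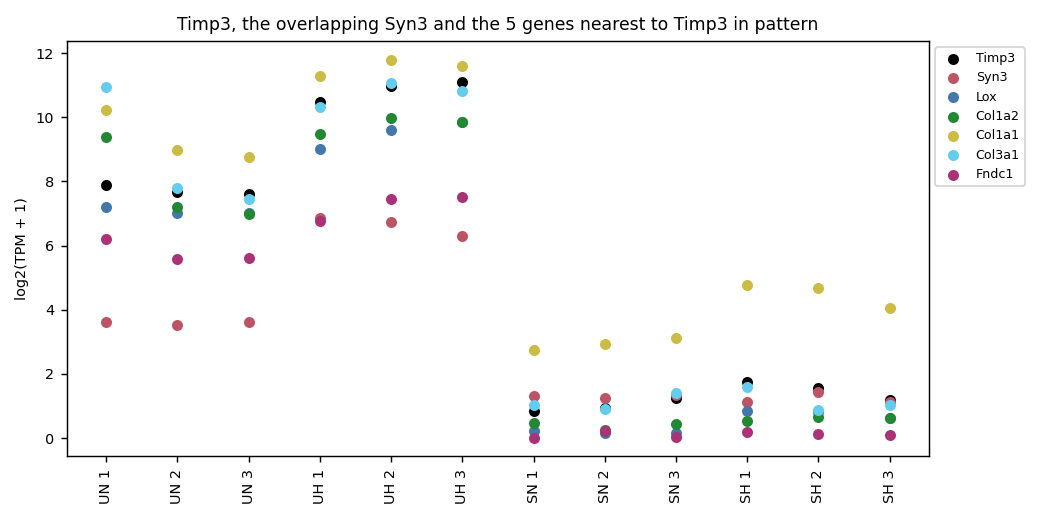
log2(TPM + 1) of Timp3, of Syn3, which overlaps it, and of the 5 genes nearest to it in pattern, in each of the 12 libraries. All 7 are above 3 in unsorted and below 5 in sorted cells, and the 3 collagens are higher in UN replicate 1 than in the other UN libraries.

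For the other members, the nearest genes were Aldh3a1 (0.42), Ccnd1 (0.65) and Ppbp (0.68) for Mmp9. Aldh3a1, an aldehyde dehydrogenase, averaged 34.2 TPM in UN, 1.72 in UH, 120 in SN and 26.3 in SH cells, and Ccnd1, cyclin D1, averaged 164, 32.9, 468 and 115 TPM in the same order. Mmp3 was nearest to Cdc42ep5, Mical1 and Fbln5, and Mmp2 to Jam2, Vcan, the matrix proteoglycan versican, and Cygb. Timp1 was nearest to Cpa6, Gstm4 and Map6, Timp2 to Rcn1, Clic4 and Trim35, Reck to B4galt4, Ttc38 and Fam210b, and Mmp13 to Nrxn2, Smad9 and Gm16685. The group means of Mmp14 and Mmp19 spanned less than 1 log2 unit, and no neighbour was sought for them.

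Beyond the 10 members, 11 of 17 other MMP genes passed the filter. In unsorted cells hypoxia raised 1 of them (Mmp10, a stromelysin, by 1.33) and lowered 2 (Mmp28 by −1.29 and Mmp7, matrilysin, by −1.07). In sorted cells it raised 4 (Mmp15 by 2.12, Mmp11 by 1.42, Mmp24 by 1.29 and Mmp28 by 1.01) and lowered Mmp7 by −2.57. Of all genes tested, 5.46% were called higher and 11.8% lower in unsorted cells, and 7.47% and 5% in sorted cells. The responses differed for Mmp15 by 2.87 (SE 0.35, limma adjusted p = 3.21e-04), with 2.12 TPM in UN, 0.771 in UH, 0.613 in SN and 6.01 in SH cells. Of these 11, only Mmp7 was called higher in SN than UN cells, at 2.01 TPM in UN and 23.7 in SN cells. Mmp11 was the most abundant of these 11 in SH cells, at 94.2 ± 5.13 (SD, n = 3) TPM, above the 78.1 ± 4.07 (SD, n = 3) TPM of Mmp14. The others with a mean of at least 1 TPM in a group were Mmp12, Mmp16, Mmp17 and Mmp23, of which Mmp17 was lower in SH than UH cells by −2.27. Timp4, the remaining TIMP, was not tested, with group means of at most 0.0458 TPM.

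Of 9 ADAM genes 7 were tested, among them Adam17, the sheddase that Timp3 inhibits, at group means from 13.4 to 22.5 TPM and not called in any comparison. Hypoxia lowered Adam12 by −1.59 in unsorted cells and raised Adam15 by 1.43 in sorted cells, and Adam19 was lower in SH than UH cells by −3.40. Of 19 ADAMTS genes, which include the aggrecanases inhibited by Timp3, 16 were tested. In unsorted cells 3 rose (Adamts14 by 1.28, Adamts6 by 1.23 and Adamts2 by 1.19) and 5 fell, most of all Adamts16 by −3.89. In sorted cells 0 rose and 4 fell, of which Adamts5, an aggrecanase, fell by 2.20 on the log2 scale. The shares over all genes were 5.46% higher and 11.8% lower in unsorted cells, and 7.47% and 5% in sorted cells.

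Among 17 genes that activate, induce or inhibit these proteinases, 15 were tested and 4 rose in unsorted cells with hypoxia. The largest changes were those of Bsg (basigin, an inducer of MMPs) by 4.10, Serpinb2 (an inhibitor of plasminogen activators) by 3.50 and A2m (a broad proteinase inhibitor) by 2.70. In sorted cells 3 rose, Bsg by 3.46, Hpn by 1.25 and Lrp1, an endocytic receptor that clears MMP complexes, by 1.14. Over all genes 5.46% were called higher in unsorted and 7.47% in sorted cells. Bsg went from 707 to 11994 TPM in unsorted and from 695 to 7889 TPM in sorted cells, so unlike Timp1, Timp3 and Mmp3 it was called higher in both. The responses of Serpinb2 differed by −3.45 (limma adjusted p = 0.00210), with 42.9 TPM in UH and 0.172 in SH cells.

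**Figure D5:**
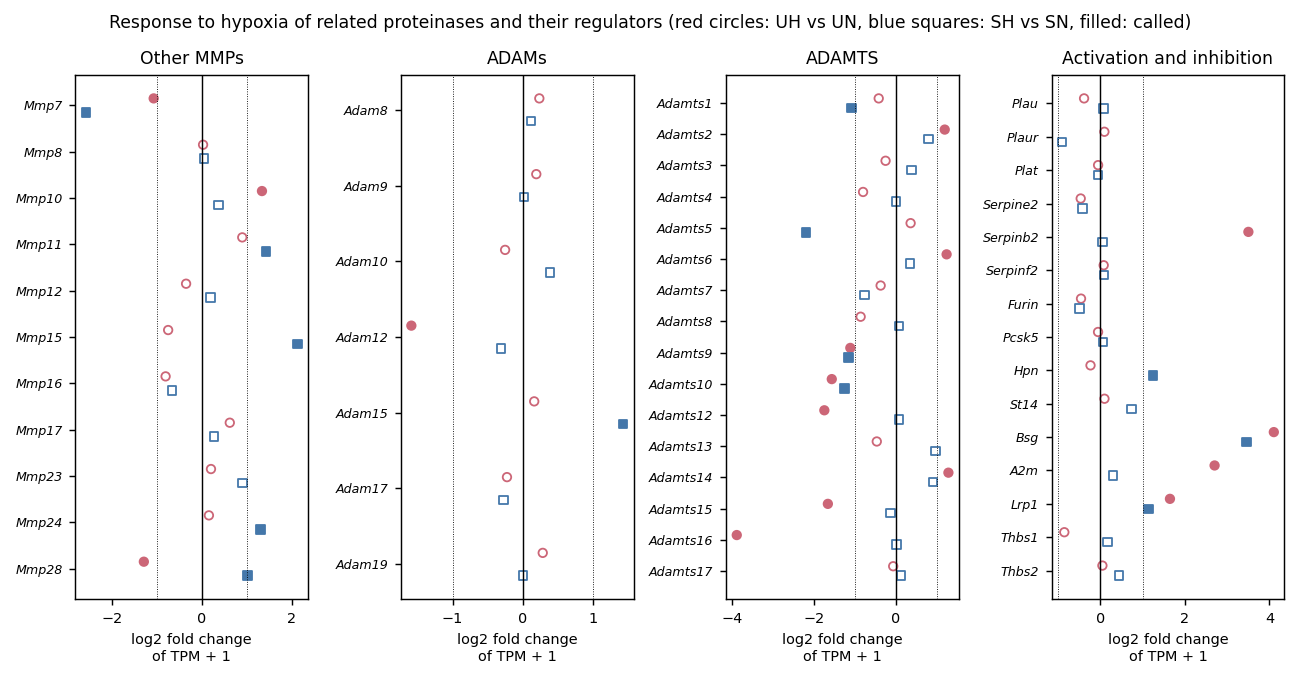
Log2 fold changes of TPM + 1 with hypoxia for other MMPs, ADAMs, ADAMTS genes and their regulators, circles for UH vs UN and squares for SH vs SN, filled where called and with dotted lines at a fold of 2. Bsg and Lrp1 are filled in both, while Mmp15 is filled only as a square, at 2.12.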

How the data were processed

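RNA of BN1-Tie2-EGFP cells was sequenced in 12 libraries, 3 in each of 4 groups taken from the sample labels. The authors processed the reads with nf-core/rnaseq 3.12.0 (per the labels, on mm10) and deposited TPM, which are corrected for transcript length and sum to 1000000 in each library. Counts and depth cannot be recovered from TPM, so no counting interval is given, and precision is the spread between replicates. The annotation release and the strand setting of the counting are not given in the sources used here.

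Gene coordinates were taken from GENCODE M21 (GRCm38), in which 45143 of 45706 identifiers (98.8%) were found. The values log2(TPM + 1) of genes whose TPM averaged at least 0.1 entered a linear model with 4 group means, made with limma 3.58.1 (R 4.3.3) and moderated with a trend. Calls required a p under 0.05 after Benjamini-Hochberg adjustment and a fold above 2. The study's count model could not be used on TPM. Tables, motif searches and figures were made with Python 3.11.15, and the fit was tested on simulated data. Mmp27 was listed under more than 1 identifier and was left out.

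The members and lists were chosen with earlier results of these data known. All members are named. From the wider lists, up to 3 called genes in each direction of a comparison and MMPs with a mean of at least 1 TPM in a group are named, not all of them in every comparison. The nearest 5 genes to Timp3 and 3 to each other member are named, of genes with a mean of at least 1 TPM. No p is given for members in SN vs UN, nor for Timp3 between sorted and unsorted cells. Libraries were not paired by replicate number, since the sources do not say that the numbers pair them. Same-numbered libraries deviated together with r from −0.0631 to 0.141, and no comparison had all 3 above 0.1. Such values show no strong shared deviation but cannot exclude a pairing. A result on 1 regulator gene is not reported here.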

Additional observations from a re-analysis of the deposited data

Results flagged for a closer look

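The response to hypoxia was tested for a difference between sorted and unsorted cells, and 3 members passed. Timp3 was left out of this test. The response of Timp1 was lower in sorted cells by a log2 difference of −1.08, that of Mmp3 was lower by −2.14, and that of Reck was higher by 1.31. The limma adjusted p-values were 0.00563, 0.00220 and 0.0119. In the 3 sorted hypoxic libraries Timp1 and Mmp3 lay within or below the range of the sorted normoxic libraries, and Reck lay above it.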

How the results depend on the processing

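The counts of members called were recomputed with a pseudocount of 0.1, without a filter, with a filter at 1 TPM, with median-of-ratios scaling or quantile normalization, with a replicate block, with the compared groups alone, without a trend and without each library. Of the recomputed counts, 142 were within 1.5 times the reported one and 8 were not. Members called lower in UH cells numbered 1 in place of 2 with no filter and with the compared groups alone, and 1 to 2 with libraries left out. Members called higher in SH against SN cells numbered 1 with a pseudocount of 0.1 and 0 to 1 with libraries left out. Members with a higher response in sorted cells numbered 0 after quantile normalization and 1 to 2 with libraries left out. With the replicate block the counts were unchanged. They were 3 higher and 2 lower in UH, 0 and 1 in SH against SN, and 1 higher in the difference of responses. The sources do not say that the replicate numbers pair the libraries. The recomputed counts of SN against UN cells, of SH against UH cells and of the difference of responses take in Timp3. It was not tested there, and nothing is read from its part in these counts. The causes were not tested.

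Single values near 0 changed sign. In SH against SN cells Timp1 was 0.11 after quantile normalization and −0.0894 to 0.0279 with libraries left out, Mmp2 was −0.27 to 0.11 and Mmp13 −0.18 to 0.27. Mmp19 was −0.29 to 0.0507 in SN against UN cells. In SH against UH cells Mmp19 was −0.20 after median-of-ratios scaling, −0.15 after quantile normalization and −0.0459 to 0.0828 with libraries left out, and Reck was −0.32 to 0.0789. In the difference of responses Timp2 was −0.24 after median-of-ratios scaling, Mmp19 was −0.15 and −0.0648 under the 2 scalings and −0.0401 to 0.30 with libraries left out, and Mmp14 was −0.29 to 0.00641.

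Calls over all genes depend on scaling. Median-of-ratios scaling gave 745 higher and 1259 lower in SN against UN cells, 1022 and 1326 in SH against UH cells and 903 and 783 in the difference of responses, in place of 606 and 1431, 1447 and 1012, and 1527 and 412. A pseudocount of 0.1 gave 1580 and 3302 in UH against UN cells, 2854 and 1272 in SH against SN cells, 990 and 2402 in SN against UN cells, and 2810 and 1550 in SH against UH cells. Unknown depth limits what can be said of Timp3 in sorted cells, of Reck and of Mmp13, which lie near 1 TPM.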
